A study of Homo sapiens with 12 samples.

Results

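The CEACAMs are cell surface glycoproteins of the immunoglobulin superfamily, and this report describes the RNA of CEACAM5, CEACAM6, CEACAM7 and CEACAM1. Members were all probe sets that the array annotation assigns to exactly 1 of these genes, whatever their values. This gave 12 of the 54675 probe sets, of which 2 belong to CEACAM5, 2 to CEACAM6, 3 to CEACAM7 and 5 to CEACAM1. The arrays were Affymetrix U133 Plus 2.0, and each of the 12 samples came from a derivative of Ls174T. Ls174T is a colorectal carcinoma cell line of human origin with constitutively active Wnt signalling.

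There were 4 groups of 3 arrays. In Ls174T-pTER-β-catenin cells doxycycline had induced for 72 h an shRNA, a short hairpin RNA that degrades the β-catenin message, and the same cells without doxycycline were the control. In Ls174T-L8 cells doxycycline had switched on a dominant-negative Tcf4 transgene (dnTcf4) for 24 h, again beside untreated cells of that line. β-catenin is the co-activator that Wnt signalling stabilises, and Tcf4 is its DNA-binding partner, so both constructs lower transcription through the pathway. Arrays given doxycycline without a construct were not analysed here, line and induction time differ together with the construct, and the labels do not say whether replicates were separate cultures. P-values therefore measure the spread between these arrays, and 3 arrays per group limit the precision.

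CEACAM5 is the carcinoembryonic antigen, long used as a serum marker of colorectal cancer. CEACAM5, CEACAM6 and CEACAM7 are held in the membrane by a glycosylphosphatidylinositol (GPI) anchor and sit on the apical surface of mature colonocytes. CEACAM1 crosses the membrane, and the long form of its tail carries inhibitory tyrosine motifs that bind the phosphatases SHP-1 and SHP-2. They bind CEACAMs on neighbouring cells. The genes lie in 1 family cluster on chromosome 19 and are close in sequence, so probes made for one can also bind RNA of another, and signals of a single member are uncertain to that extent.

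The relatedness is visible in the 250 bases before each annotated start site, taken from RefSeq (GRCh38.p14) and given 5′ to 3′ on the strand of the gene. They are given as a description. The motifs were chosen after values were seen, and their part in the changes was not tested. Capitals mark matches to CACGTG (the E-box bound by USF and MYC family factors), to CTTTGA or CTTTGT (the core bound by TCF/LEF factors) and to GAAA followed after any 2 bases by GAAA (the core of the interferon-stimulated response element), searched on both strands.
CEACAM5, chr19:41708376-41708625, plus strand: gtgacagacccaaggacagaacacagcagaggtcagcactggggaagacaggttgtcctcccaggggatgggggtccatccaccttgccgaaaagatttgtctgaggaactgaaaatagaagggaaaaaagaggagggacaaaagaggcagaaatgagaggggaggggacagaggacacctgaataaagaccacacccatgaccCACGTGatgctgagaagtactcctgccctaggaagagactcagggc
CEACAM6, chr19:41755280-41755529, plus strand: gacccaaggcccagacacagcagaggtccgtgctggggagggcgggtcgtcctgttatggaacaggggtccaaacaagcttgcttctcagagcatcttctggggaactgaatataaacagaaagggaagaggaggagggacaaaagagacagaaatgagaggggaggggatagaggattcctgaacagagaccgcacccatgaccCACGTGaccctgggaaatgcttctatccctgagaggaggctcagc
CEACAM7, chr19:41688271-41688520, minus strand: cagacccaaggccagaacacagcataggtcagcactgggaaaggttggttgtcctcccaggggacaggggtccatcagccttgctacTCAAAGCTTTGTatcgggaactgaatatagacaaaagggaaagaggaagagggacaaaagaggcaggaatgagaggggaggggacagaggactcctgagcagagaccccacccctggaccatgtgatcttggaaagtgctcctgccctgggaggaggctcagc
CEACAM1, chr19:42528482-42528731, minus strand: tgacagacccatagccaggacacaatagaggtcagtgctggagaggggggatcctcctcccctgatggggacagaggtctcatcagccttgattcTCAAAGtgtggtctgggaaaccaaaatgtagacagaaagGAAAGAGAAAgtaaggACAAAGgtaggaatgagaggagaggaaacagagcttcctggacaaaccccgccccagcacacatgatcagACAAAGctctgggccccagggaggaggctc

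Identity between these windows ranged from 66.2% (CEACAM5 and CEACAM1) to 80.5% (CEACAM5 and CEACAM7) of aligned columns. CEACAM5 and CEACAM6 each held 1 E-box, ending 41 and 40 bases before the start site, and no TCF/LEF core. CEACAM7 held 2 TCF/LEF cores side by side, on opposite strands and without overlap. CEACAM1 held 3 TCF/LEF cores and 1 match to the interferon element, and like CEACAM7 no E-box. Among 35116 RefSeq promoter windows of the same length 6.34% held CACGTG, 22.8% held CTTTGA or CTTTGT, and 3.02% held the interferon element. A match describes letters in this window only, and binding was not measured.

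**Figure D1:**
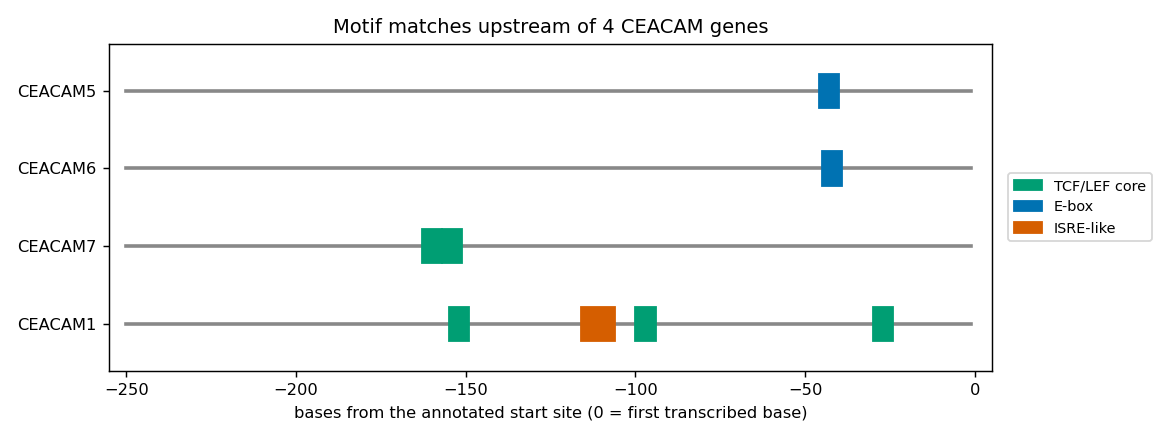
Positions of motif matches in the 250 bases before the start site of each gene (horizontal axis, bases from the start site). Blue boxes are E-boxes, green boxes TCF/LEF cores and the orange box the match to the interferon element. CEACAM5 and CEACAM6 show 1 E-box each at nearly the same place, CEACAM7 shows 2 adjoining TCF/LEF cores, and CEACAM1 shows 3 TCF/LEF cores and the interferon element.

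The arrays were even in signal, a linear value in arbitrary units, with a median between 12.1 and 15.3 per array. Arrays of a group correlated at 0.957 to 0.969 in log2 signal, over probe sets at or above the median mean signal only. The constructs were visible, since the brightest CTNNB1 probe set, for β-catenin, was at 155 with the shRNA induced against 3781 uninduced. The TCF7L2 probe set with the largest rise, for Tcf4, was at 1221 with dnTcf4 induced against 106 uninduced. Another TCF7L2 probe set rose 7.55-fold with dnTcf4. The others, among them the brightest, stood only 1.33-fold to 2.07-fold higher with dnTcf4 and 1.21-fold to 1.67-fold higher with the shRNA. Of 12 established Wnt/TCF targets 9 fell with the shRNA and 8 with dnTcf4, beside 9.08% and 10.1% of all genes, each read by 1 probe set. Of 8 epithelial markers all lay above the median signal of 10.2 on average, EPCAM at 4200 to 4630 in the 4 groups and CDH1, for E-cadherin, lowest at 68.3 to 125. Values given below as means are geometric means of 3 arrays. Log2 changes are induced minus uninduced ± standard error, from limma over 54613 probe sets, and a probe set was called at a Benjamini-Hochberg adjusted p under 0.05.

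CEACAM RNA was higher after either induction, and the members that rose most were not the same in the 2 lines. CEACAM6 rose 6.79-fold and CEACAM5 4.23-fold with the β-catenin shRNA, against 2.12-fold and 2.23-fold with dnTcf4. The 4 called CEACAM1 probe sets rose 4.17-fold to 12.3-fold with dnTcf4, against 2.07-fold to 5.37-fold with the shRNA. CEACAM7 passed the test with neither construct. In each induction 7 of the 12 probe sets were called higher and none lower, the same 7 both times: 1 of CEACAM5, both of CEACAM6 and 4 of CEACAM1. Of all probe sets 5.33% were called higher with the shRNA and 5.34% with dnTcf4, and 2.34% with both. These shares include dim probe sets, while 9 of the 12 members lay at or above the median signal. When only such probe sets were fitted, 6855 of 27307 were called in either direction with the shRNA and 7126 with dnTcf4. The median log2 change of the 12 was 1.42 with the shRNA and 1.34 with dnTcf4, beside 0.01 and -0.02 over all probe sets. Probe sets of 1 gene share their RNA, so the counts of member probe sets are not separate observations. The 4 genes were also chosen with earlier results of these data known, so the counts are a description and not a test. A rise in bulk RNA cannot tell more RNA per cell from more cells that express the gene.

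**Figure D2:**
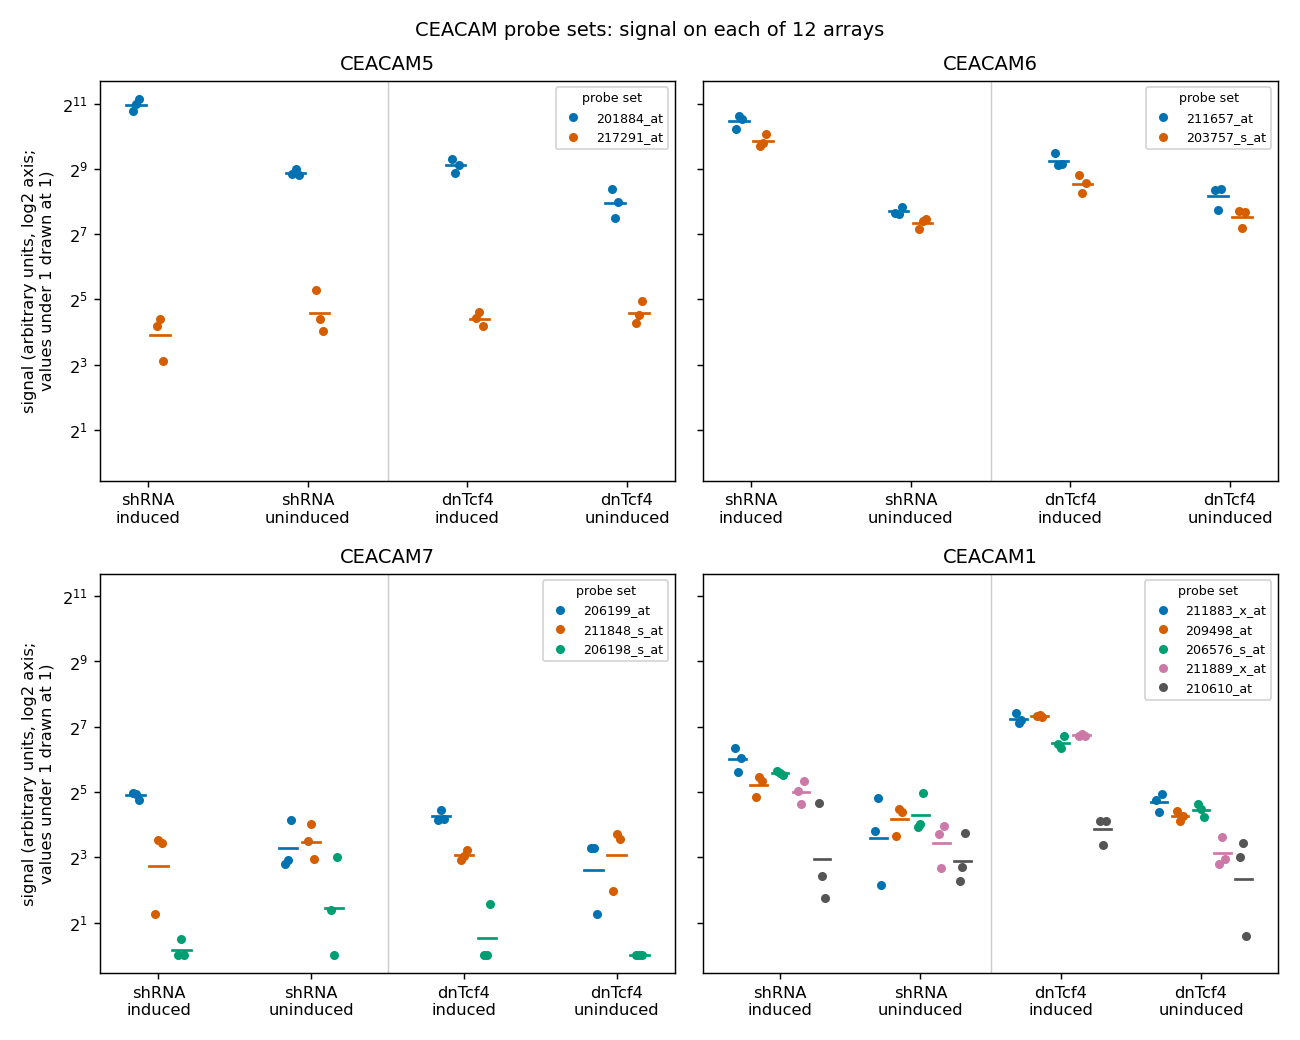
Signal (vertical axis, arbitrary units on a log2 scale, values under 1 drawn at 1) of all 12 CEACAM probe sets on each of 12 arrays, 1 panel per gene and 1 colour per probe set. Points are arrays and short lines geometric means of 3. The upper probe sets of CEACAM5 and CEACAM6 lie highest in induced shRNA cells, and 4 probe sets of CEACAM1 lie highest in induced dnTcf4 cells.

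CEACAM5 was read by 2 probe sets that disagreed. Probe set 201884_at had signals of 1751, 2039.9 and 2244.5 in cells with the shRNA induced, against 463, 512.3 and 445.3 uninduced. It had 631.5, 471.8 and 556.3 with dnTcf4 induced, against 329.9, 179.5 and 253.6 uninduced. Induced and uninduced arrays did not overlap in either line. Non-overlap in the upward direction was seen for 12.1% of all probe sets with the shRNA and for 11.8% with dnTcf4. The log2 changes were 2.08 ± 0.17 (adjusted p = 2.26e-07) with the shRNA and 1.15 ± 0.17 (adjusted p = 0.000144) with dnTcf4.

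The starting level of CEACAM5 differed between the lines. By 201884_at the uninduced dnTcf4 line, at 247, was lower than the uninduced shRNA line, at 473, by a log2 difference of -0.94 ± 0.17 (adjusted p = 0.000872). It was the only member probe set called between the uninduced lines, where 13.1% of all probe sets were called and 6.87% called lower. In order, CEACAM5 by 201884_at was lowest in uninduced dnTcf4 cells, then came uninduced shRNA cells and induced dnTcf4 cells. Induced shRNA cells were highest at 2001. The middle pair, induced dnTcf4 cells at 549 and uninduced shRNA cells at 473, did not differ beyond their spread (adjusted p = 0.481). In the cross-line comparisons that such an order needs, 19% of all probe sets were called between induced dnTcf4 and uninduced shRNA cells, and 20.4% between induced shRNA and uninduced dnTcf4 cells.

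The other CEACAM5 probe set, 217291_at, was dim and did not show these changes. Its signals were 18.3, 21 and 8.6 with the shRNA induced against 39, 21.2 and 16.2 uninduced, and 21.7, 24.4 and 18 with dnTcf4 induced against 19.3, 23 and 30.7 uninduced. All groups overlapped, and its changes of -0.67 ± 0.44 with the shRNA and -0.17 ± 0.44 with dnTcf4 did not pass (adjusted p = 0.443 and 0.91). Why the 2 probe sets disagree was not tested.

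CEACAM6, a GPI-anchored member that is often raised in colorectal tumours, was read alike by both of its probe sets. Probe set 211657_at had signals of 1196.7, 1582.7 and 1480.1 with the shRNA induced, against 201.9, 195.7 and 227 uninduced. It had 708.8, 552.7 and 567.6 with dnTcf4 induced, against 328.7, 212.4 and 333.7 uninduced. Neither line showed overlap. Its change of 2.76 ± 0.16 with the shRNA (adjusted p = 3.38e-09) was the 186th largest increase among 54613 probe sets. With dnTcf4 it rose by 1.08 ± 0.16 (adjusted p = 0.000138).

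Probe set 203757_s_at gave 824.9, 889.9 and 1069.4 with the shRNA induced against 141.4, 168.2 and 175.2 uninduced. It gave 452.8, 307.8 and 377.1 with dnTcf4 induced against 208.5, 146.4 and 204.3 uninduced. It rose by 2.52 ± 0.16 with the shRNA (adjusted p = 1.14e-08) and by 1.03 ± 0.16 with dnTcf4 (adjusted p = 0.000249). Over the 12 arrays the log2 signals of both CEACAM6 probe sets correlated at 0.99, and that of CEACAM5 201884_at correlated with them at 0.86 and 0.91. These correlations describe arrays that fall into 4 groups. The order of CEACAM6 was the same by both probe sets: the uninduced lines lowest and not separated by the test (adjusted p = 0.0695 and 0.552), then induced dnTcf4 cells, then induced shRNA cells. Each of the upper steps passed the test.

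CEACAM7, a GPI-anchored protein of the mature colonic surface that is often lost early in colorectal tumours, was dim in all groups. Probe set 206199_at had signals of 31.6, 30.9 and 27.3 with the shRNA induced, against 6.9, 7.5 and 17.7 uninduced. It had 17.6, 21.7 and 18.1 with dnTcf4 induced, against 9.7, 9.7 and 2.4 uninduced. Induced arrays lay above uninduced arrays in both lines, without overlap. The changes of 1.62 ± 0.59 with the shRNA and 1.65 ± 0.59 with dnTcf4 missed the threshold (adjusted p = 0.101 and 0.0947). They passed when dim probe sets, those with an average log2 signal under 3.35 (the median), were left out, at adjusted p = 0.0448 and 0.0406. Probe set 206199_at averaged 3.28 in uninduced shRNA cells and 2.61 in uninduced dnTcf4 cells, both under that cut. It was kept only through its induced arrays, so this pass is not separate support for the rise. The change with dnTcf4 was 0.97 without dnTcf4 uninduced replicate 3, whose signal was 2.4.

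The remaining CEACAM7 probe sets lay below that median. Probe set 211848_s_at ranged from 2.4 to 11.5 with the shRNA induced against 7.7 to 16.1 uninduced, and from 7.5 to 9.4 with dnTcf4 induced against 3.9 to 13.1 uninduced. Probe set 206198_s_at ranged from 0.4 to 1.4 with the shRNA induced against 0.2 to 8 uninduced, and from 0.6 to 3 with dnTcf4 induced against 0.2 to 0.7 uninduced. Neither was called in any comparison. No pair of neighbours in the order of the 4 groups was separated for any CEACAM7 probe set. The ends of the order of 206199_at, induced shRNA cells and uninduced dnTcf4 cells, did differ (2.29 ± 0.59, adjusted p = 0.00888). In that comparison 20.4% of all probe sets were called, and line and construct differ together.

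CEACAM1, the transmembrane and signalling member, rose most with dnTcf4. Probe set 209498_at had signals of 161.7, 164.8 and 158.1 with dnTcf4 induced, against 21.6, 17.3 and 19.3 uninduced. With the shRNA induced it had 29.1, 44.4 and 40.2, against 12.7, 22.1 and 20.8 uninduced. Both lines were without overlap, and induced dnTcf4 cells lay far above all other arrays. The log2 changes were 3.06 ± 0.26 with dnTcf4 (adjusted p = 5.89e-07), an 8.36-fold rise, and 1.05 ± 0.26 with the shRNA (adjusted p = 0.0134), a 2.07-fold rise.

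Probe set 211889_x_at had 105, 109.5 and 105.4 with dnTcf4 induced against 6.9, 12.2 and 7.8 uninduced. It had 32.8, 24.6 and 40.6 with the shRNA induced against 13.2, 6.4 and 15.4 uninduced. It rose with dnTcf4 by 3.62 ± 0.39 (adjusted p = 5.69e-06), which is 12.3-fold, and with the shRNA by 1.55 ± 0.39 (adjusted p = 0.0123). Its uninduced dnTcf4 mean of 8.69 lay below the median signal of 10.2, so the size of that fold is uncertain: the change was 3.32 with values under 10 set to 10 and 3.17 with an offset of 3.5. The shRNA calls of these 2 probe sets were the least firm. Leaving out shRNA induced replicate 2 (adjusted p = 0.0645), induced replicate 3 (0.051) or uninduced replicate 1 (0.0627) ended the call of 209498_at. Leaving out shRNA induced replicate 3 (adjusted p = 0.0656) or uninduced replicate 2 (0.0588) ended that of 211889_x_at. Both were lost when only the 6 arrays of that line were fitted (adjusted p = 0.12 and 0.0862).

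Probe set 206576_s_at had 88.4, 81.8 and 104.6 with dnTcf4 induced against 24.7, 22.4 and 18.9 uninduced, and 50.4, 48.4 and 45.6 with the shRNA induced against 15.1, 16.4 and 31.3 uninduced. It rose by 2.06 ± 0.28 with dnTcf4 (adjusted p = 7.15e-05) and by 1.28 ± 0.28 with the shRNA (adjusted p = 0.00493). Probe set 211883_x_at had 172.7, 138.5 and 147 with dnTcf4 induced against 26.9, 21.1 and 30.8 uninduced. With the shRNA induced it had 81.7, 49.4 and 66.2 against 14, 28 and 4.4 uninduced. Its rises of 2.55 ± 0.45 with dnTcf4 (adjusted p = 0.000901) and 2.43 ± 0.45 with the shRNA (adjusted p = 0.00139) were not separated by the test, but the rise with the shRNA rested on single arrays. It was 1.70 without shRNA uninduced replicate 3, which had the signal of 4.4, and 3.04 without uninduced replicate 2, and the difference from dnTcf4 ranged from -0.85 to 0.49 when single arrays were left out.

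In Affymetrix naming the endings _x_at and _s_at mark probe sets whose probes can match other genes or several transcripts. Probe set 209498_at, without such an ending, correlated over the 12 arrays with 206576_s_at at 0.93, with 211889_x_at at 0.91 and with 211883_x_at at 0.83. The fifth, 210610_at, was below the median signal. It ranged from 10.4 to 17.3 with dnTcf4 induced against 1.5 to 10.8 uninduced, and from 3.4 to 25.3 with the shRNA induced against 4.8 to 13.3 uninduced, and was called in no comparison.

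In the order of CEACAM1 by 209498_at, 206576_s_at and 211889_x_at the uninduced lines were lowest and not separated by the test (adjusted p = 0.889, 0.844 and 0.71). Induced shRNA cells came next and induced dnTcf4 cells were highest, each step passing the test. By 211883_x_at the groups stood in a like order, but no neighbours were separated. Its step between the induced lines, 1.24 (adjusted p = 0.0725), passed with median centring (0.0341), the offset (0.0218), the floor of 10 (0.0432), dim probe sets left out (0.041) or only the 6 induced arrays (0.00464). It also passed without shRNA uninduced replicate 2 (0.0217) or 3 (0.00372). The topmost step of 206576_s_at, 0.92 between the induced lines (adjusted p = 0.0278), was lost without any 1 of the 6 induced arrays, at adjusted p of up to 0.116.

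**Figure D3:**
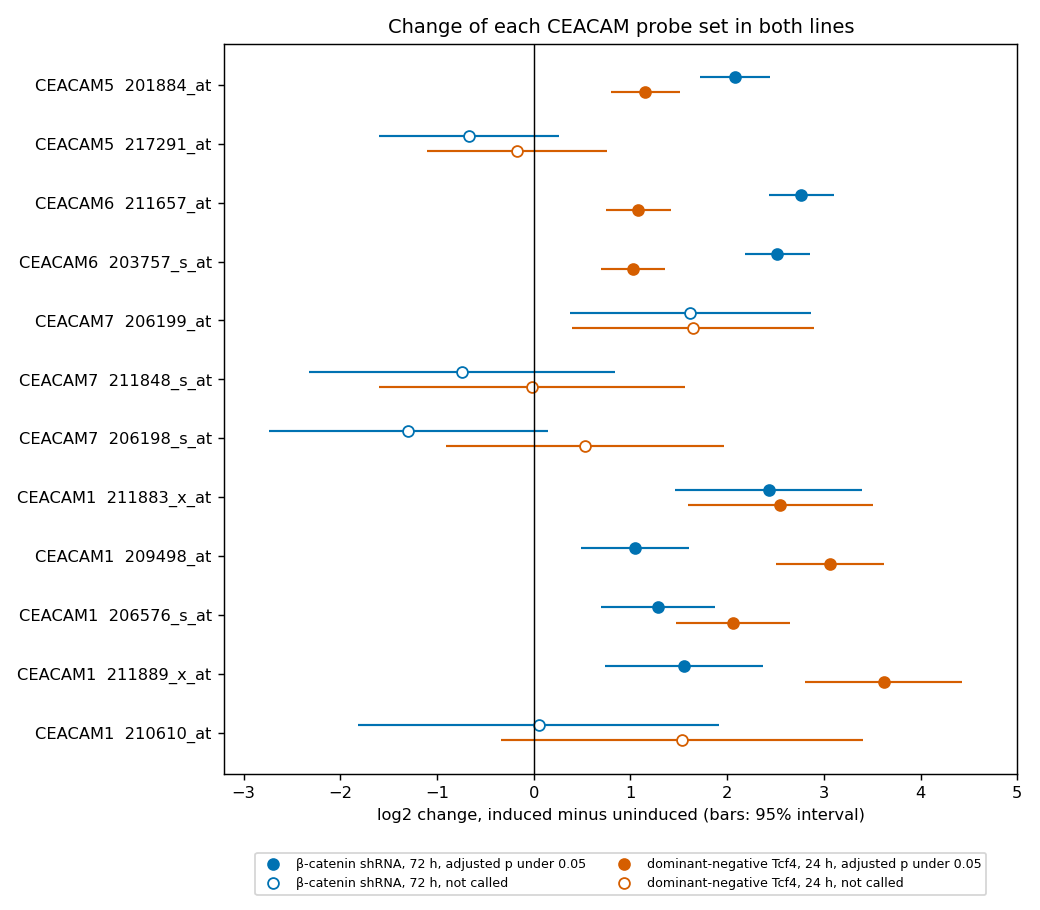
Log2 change, induced minus uninduced (horizontal axis), of each CEACAM probe set with the β-catenin shRNA (blue) and with dominant-negative Tcf4 (orange). Bars are 95% intervals, and filled points passed an adjusted p of 0.05. CEACAM6 changed more with the shRNA (2.76 and 2.52, against 1.08 and 1.03), and CEACAM1 209498_at and 211889_x_at more with dnTcf4 (3.06 and 3.62, against 1.05 and 1.55).

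Whether the responses differed between the lines was tested directly, as the change with the shRNA minus the change with dnTcf4. Of the 12 probe sets 5 were called, 3 positive and 2 negative, beside 4.54% of all probe sets called (2.17% positive, 2.37% negative). CEACAM6 rose more with the shRNA by both probe sets, by 1.68 ± 0.22 (adjusted p = 0.000213) and 1.49 ± 0.22 (adjusted p = 0.000677). CEACAM5 201884_at also rose more with the shRNA, by 0.93 ± 0.24 (adjusted p = 0.0337). CEACAM1 rose more with dnTcf4, with differences of -2.01 ± 0.37 for 209498_at (adjusted p = 0.00374) and -2.07 ± 0.54 for 211889_x_at (adjusted p = 0.0385).

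The calls of both CEACAM6 probe sets and of CEACAM1 209498_at stood without each of the 12 arrays. Without the variance trend, however, that of CEACAM6 203757_s_at missed the threshold (adjusted p = 0.0558). Those of CEACAM5 201884_at and CEACAM1 211889_x_at were each lost in 9 of 12 such fits. CEACAM5 kept its call only without shRNA induced replicate 1, dnTcf4 induced replicate 1 or dnTcf4 uninduced replicate 2. CEACAM1 211889_x_at kept its call only without shRNA induced replicate 3, shRNA uninduced replicate 2 or dnTcf4 uninduced replicate 2. For other probe sets no difference was shown, with wide intervals: -0.02 (95% interval -1.79 to 1.75) for CEACAM7 206199_at, -0.78 (-1.62 to 0.06) for CEACAM1 206576_s_at and -0.13 (-1.49 to 1.24) for CEACAM1 211883_x_at. Construct, line and duration of 72 h or 24 h cannot be told apart in this difference.

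The end levels split the same way. Between the induced lines, dnTcf4 minus shRNA, 3 of 12 probe sets were called higher and 3 lower, beside 18.6% of all probe sets called (8.83% higher, 9.73% lower). CEACAM5 201884_at was lower in induced dnTcf4 cells, at 549 against 2001 in induced shRNA cells, a log2 difference of -1.87 ± 0.17 (adjusted p = 3.52e-07). CEACAM6 was lower by -1.22 ± 0.16 and -1.30 ± 0.16 (adjusted p = 1.93e-05 and 1.02e-05). CEACAM1 was higher in induced dnTcf4 cells, at 162 against 37.3 by 209498_at (2.11 ± 0.26, adjusted p = 1.31e-05) and at 107 against 32.0 by 211889_x_at (1.74 ± 0.39, adjusted p = 0.00321). All called CEACAM5 and CEACAM6 probe sets were thus lower in induced dnTcf4 cells and all called CEACAM1 probe sets higher.

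**Figure D4:**
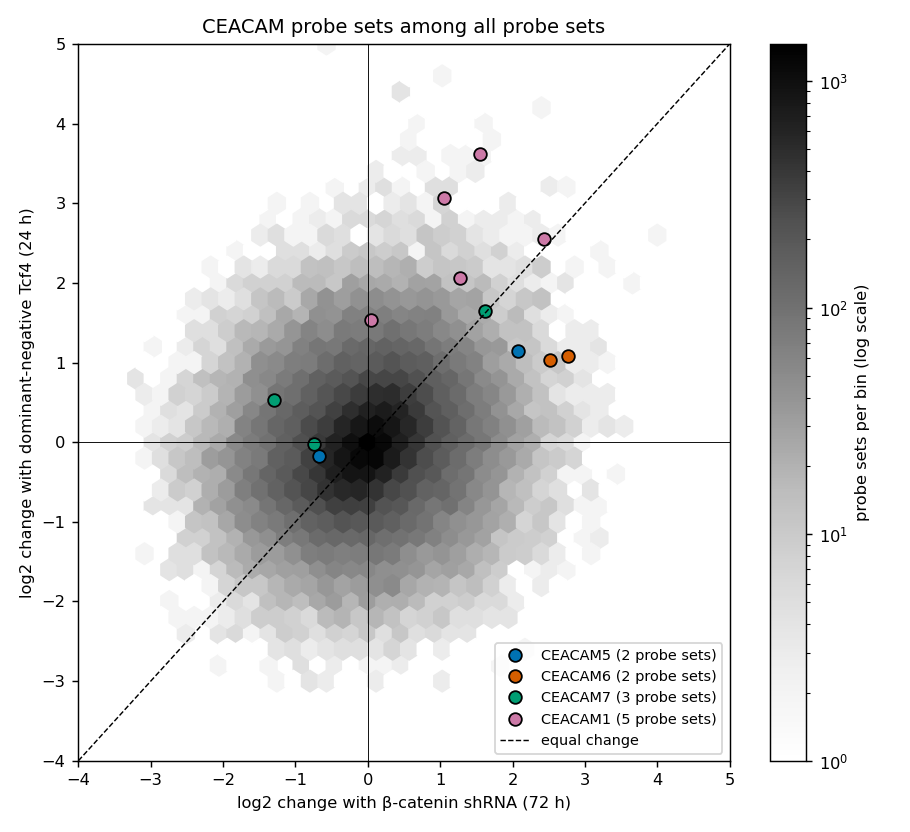
Log2 change with the β-catenin shRNA (horizontal axis) against that with dominant-negative Tcf4 (vertical axis). Grey hexagons count all 54613 probe sets on a log scale, within the axes shown, and coloured points are the CEACAM probe sets. CEACAM6 (orange) and CEACAM5 201884_at (blue) lie below the dashed line of equal change, and CEACAM1 209498_at and 211889_x_at (pink) lie above it.

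Genes with the most similar profile were looked up for the probe set of each member with the highest mean. Pearson correlation of log2 signal over the 12 arrays was taken with 12390 other genes. These were the genes at or above the median mean log2 signal of 3.35, a cut that a gene can meet through its induced arrays. Nearest to CEACAM5 were SLC50A1, a sugar transporter (r = 0.977), ATP6V1H, a subunit of the vacuolar proton pump (0.976), and KRCC1 (0.974). Nearest to CEACAM6 were KRT20, a keratin of differentiated intestinal epithelium (0.979), CPEB2, a regulator of mRNA translation (0.979), and MGAT2, an enzyme of N-glycan synthesis (0.975). KRT20 had means of 2480 with the shRNA induced against 24.5 uninduced, and 388 with dnTcf4 induced against 95 uninduced.

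For CEACAM7 206199_at the nearest were COPB1, a coat protein of Golgi vesicles (0.929), RPS6KC1 (0.916) and OSBPL9 (0.914). For CEACAM1 211883_x_at they were LBH, a transcription cofactor (0.975), IFIT3, an interferon-induced gene (0.96), and HSPA5, the main chaperone of the endoplasmic reticulum (0.948). IFIT3 was at 41.1 with the shRNA induced against 13 uninduced, and at 104 with dnTcf4 induced against 19 uninduced. These are the extremes of many correlations over the same 4 groups of arrays and are given as a description.

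Related genes were read with 1 probe set per gene, where 8.47% of all genes were called higher and 9.08% lower with the shRNA, and 8.41% higher and 10.1% lower with dnTcf4, and median changes over all genes were 0.03 and -0.04. Of 5 other CEACAM genes measured none was called in either line, and none of 9 pregnancy-specific glycoproteins, the placental branch of the family. CEACAM3, a granulocyte member, was at 28.8 with the shRNA induced against 20.2 uninduced and at 29.4 with dnTcf4 induced against 19.4 uninduced (adjusted p = 0.615 and 0.557). CEACAM8, also of granulocytes, had means of at most 4.4. At such low signals a change could be missed.

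Other GPI-anchored surface proteins went both ways. With the shRNA 3 of 26 rose and 5 fell (median -0.07), and with dnTcf4 7 rose and 4 fell (median 0.13). With the shRNA the largest called changes were those of RGMB, a BMP co-receptor, at -2.42 ± 0.12, GPC4, a glypican, at -1.38 ± 0.16, and NT5E, the CD73 nucleotidase, at 1.24 ± 0.16. With dnTcf4 they were increases of CD24, a mucin-like surface protein, by 2.95 ± 0.13, PLAUR, the urokinase receptor, by 2.78 ± 0.16, and EFNA1, an ephrin, by 1.45 ± 0.22.

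Enzymes that build and attach the GPI anchor were mostly not called: 2 of 27 rose and 4 fell with the shRNA (median -0.10), and 2 rose and 6 fell with dnTcf4 (median -0.09). With the shRNA PIGX and PIGU, subunits of the mannosyltransferase and transamidase steps, fell by 1.26 ± 0.12 and 1.10 ± 0.13, and PGAP1, which remodels the anchor, fell by 0.84 ± 0.24. With dnTcf4 PIGW, an inositol acyltransferase, fell by 0.98 ± 0.20, PIGU fell by 0.70 ± 0.13 and PGAP3, a remodelling factor, rose by 0.55 ± 0.17.

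Partners of CEACAM1 in signalling and at the cytoskeleton counted 2 of 11 higher and 4 lower with the shRNA (median -0.44), and 3 higher and 1 lower with dnTcf4 (median 0.16). S100A10 and ANXA2, which form a complex under the membrane, rose by 3.30 ± 0.11 and 1.33 ± 0.08 with the shRNA, and by 0.58 ± 0.11 and 0.34 ± 0.08 with dnTcf4. SYK, a tyrosine kinase, fell by 1.82 ± 0.10 with the shRNA and by 0.70 ± 0.10 with dnTcf4. SHC1, an adaptor, rose by 0.65 ± 0.14 with dnTcf4. PTPN11, encoding SHP-2, fell by 0.45 ± 0.11 with the shRNA (adjusted p = 0.00962), and PTPN6, encoding SHP-1, was not called in either line (0.17 and 0.28).

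Other adhesion genes of the immunoglobulin superfamily were mostly not called: 2 of 30 rose and 2 fell with the shRNA (median 0.13), and 4 rose and 2 fell with dnTcf4 (median 0.05). With the shRNA NECTIN1 fell by 1.32 ± 0.25, ALCAM rose by 0.87 ± 0.14 and NECTIN2 rose by 0.65 ± 0.12. With dnTcf4 IGSF9 rose by 2.35 ± 0.29, GPA33, the intestinal A33 antigen, by 1.71 ± 0.11, and NECTIN2 by 0.87 ± 0.12. GPA33 fell by 0.48 ± 0.11 with the shRNA.

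Among 19 genes of mature colonocytes 4 rose and none fell with the shRNA (median 0.32), and 6 rose and none fell with dnTcf4 (median 0.94). FABP1 and KRT20 rose in both lines, by 7.23 ± 0.23 and 6.66 ± 0.25 with the shRNA and by 3.66 ± 0.23 and 2.03 ± 0.25 with dnTcf4. CA1, a carbonic anhydrase, rose by 4.76 ± 0.35 with the shRNA and was not called with dnTcf4 (-0.27 ± 0.35, adjusted p = 0.778). GUCA2B and GUCA2A, peptides of the surface epithelium, rose by 7.39 ± 0.82 and 5.93 ± 0.70 with dnTcf4. Neither was called with the shRNA (-2.01 ± 0.82 and 1.13 ± 0.70, adjusted p = 0.156 and 0.414). Most of the list, 15 genes with the shRNA and 13 with dnTcf4, was not called, and 10 of the 19 lay at or above the median signal. Of 8 epithelial markers 3 rose in each line, KRT8, KRT18 and KRT19 with the shRNA and KRT8, KRT19 and VIL1 with dnTcf4. EPCAM, CDH1, CDX1 and CDX2 were called in neither line. The summed signal of the 8 was 24195.1 to 26909.7 with the shRNA induced against 14680.8 to 16989.4 uninduced. With dnTcf4 induced it was 28172.4 to 31411.1 against 21956.5 to 24482.6 uninduced.

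Markers of other cell types were compared next. None of 9 leukocyte and granulocyte markers was called, and their summed signal was 61.8 to 90.6 with the shRNA induced against 63.5 to 107.7 uninduced, and 47.1 to 71.6 with dnTcf4 induced against 48.6 to 71.5 uninduced. PTPRC, the common leukocyte phosphatase, had means between 1.43 and 6.27. Of 8 fibroblast and endothelial markers 1 was called in each line. LUM, the matrix proteoglycan lumican, rose by 1.94 ± 0.47 with the shRNA, at 17.3 induced against 4.52 uninduced, and by 2.19 ± 0.47 with dnTcf4, at 99.1 induced against 21.8 uninduced. The sum of the 8, LUM included, was 133.1 to 184.4 with the shRNA induced against 122.2 to 135.5 uninduced. With dnTcf4 induced it was 192.6 to 227.1 against 125.2 to 145.2 uninduced. COL1A1, in the same sum, was at 52.4 with dnTcf4 induced against 52.2 uninduced. LUM and the epithelial sum in both lines, and with dnTcf4 the fibroblast sum that contains LUM, were higher together with the CEACAMs. Their part in the result was not tested.

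**Figure D5:**
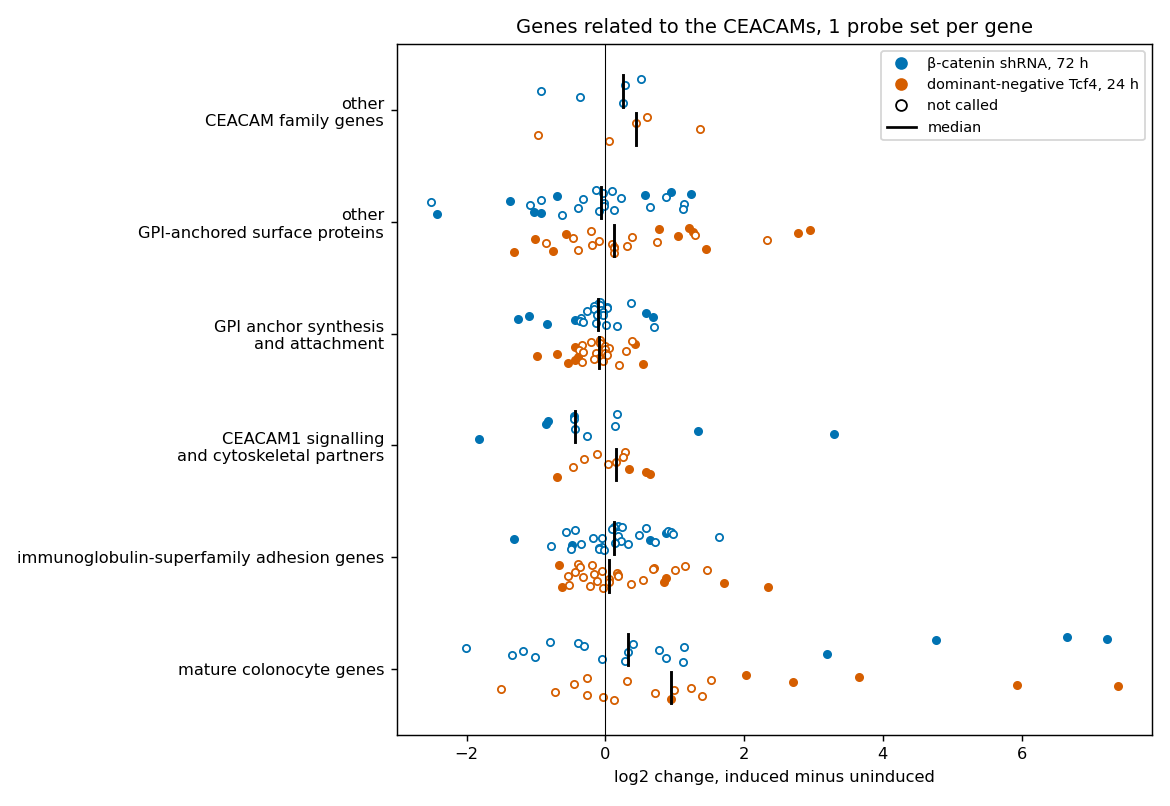
Log2 change, induced minus uninduced (horizontal axis), of genes in 6 related lists, with the β-catenin shRNA in blue and dominant-negative Tcf4 in orange, 1 point per gene. Filled points passed an adjusted p of 0.05 and black lines are medians. None of the 5 other CEACAM genes is filled, and the GPI-anchored proteins spread to both sides of 0.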

How the data were processed

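The deposited table holds 1 intensity (signal) per probe set and array, made by the authors with MAS5 and GCOS, per the submitters' processing notes; versions were not given in the sources used here. The middle 96% of probe sets averaged 100.0 on each array. Between 6.58% and 9.25% of values were under 1 and were set to 1 before log2. The 62 control probe sets were left out.

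With limma 3.58.1 (R 4.3.3) 54613 probe sets were modelled by the means of the 4 groups, with a variance trend (8 residual and 8.29 prior degrees of freedom). P-values are two-sided, with Benjamini-Hochberg adjustment over all probe sets. No filter on dim values was applied in the fit, and 9 of 12 members lay at or above the median signal (10.2). Symbols come from the array's annotation: 41097 probe sets had 1 symbol, 1801 several and 11777 none. For lists, the probe set with the highest mean represents a gene.

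Named were all member probe sets, up to 3 called genes per list and line with the largest change, and the 3 genes most correlated with each member. The correlated genes were sought only among genes at or above the median signal. CEACAM3, CEACAM8, PTPN6, PTPN11, PTPRC, EPCAM, CDH1, CDX1, CDX2 and COL1A1 were named after their values were seen. So were GPA33, GUCA2A and GUCA2B with the shRNA, and ANXA2 and CA1 with dnTcf4. The members and lists were chosen with earlier results of these data known, and the motifs after values were seen. Promoters were aligned globally with Biopython 1.88 (match 1, mismatch -1, gap -2 and -0.5 per further base). The fit was tested on simulated data with known changes, set in 100 probe sets per size of change, all at or above the median signal. Of 2-fold changes 48% were recovered for the shRNA and 40% for dnTcf4, and of 4-fold changes 80% and 73%. False calls numbered 8 of 136 for the shRNA and 7 of 120 for dnTcf4. A change that was not called can therefore have been missed. Far fewer probe sets were altered in the simulation than the 6058 (shRNA) and 6223 (dnTcf4) called in the data, so its recovery shares need not hold there. Alternatives are listed in the closing section.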

Additional observations from a re-analysis of the deposited data

Results flagged for a closer look

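In 5 probe sets the response differed between the lines by the test of the difference itself (limma, adjusted p under 0.05). The differences, shRNA minus dnTcf4, were 0.93 for CEACAM5 201884_at, 1.68 for CEACAM6 211657_at, 1.49 for CEACAM6 203757_s_at, -2.01 for CEACAM1 209498_at and -2.07 for CEACAM1 211889_x_at. All 5 rose in both lines, so the differences are of size and not of direction. The groups of 3 arrays are too small for a test of single outlying arrays.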

How the results depend on the processing

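In no alternative did a called change of a CEACAM probe set turn its direction. Alternatives were quantile normalization, median centring of arrays, an offset of 3.5, a floor of 10, a filter at the median, 1 probe set per gene, no variance trend, array weights, only the arrays compared, the replicate block, and leaving out each array. With 1 probe set per gene, which leaves 4 members, 3 were called with the shRNA, 3 with dnTcf4, 2 for the difference, 2 between the uninduced lines and 2 between the induced lines. The 2 for the difference were positive and the 2 between the induced lines were lower in dnTcf4 cells, and all were of CEACAM5 and CEACAM6. CEACAM1, then read by 211883_x_at, was called neither for the difference (-0.13) nor between the induced lines (1.24). The larger CEACAM1 response to dnTcf4 was thus not shown in this setting. CEACAM7 206199_at passed with the shRNA with the offset (1.31), the floor (1.30) and the filter (1.62), and with dnTcf4 with the floor (0.93) and the filter (1.65). The floor of 10 made uninduced signals of 6.9 and 7.5 (shRNA line) and of 9.7, 9.7 and 2.4 (dnTcf4 line) equal, which removed their spread. The filter kept this probe set only through its induced arrays. Its passes with the floor and the filter are therefore not separate support for the rise. The difference of CEACAM5 201884_at missed the threshold with median centring (0.88), the floor (0.93) and no trend (0.93). Without the trend 2 of 12 members were called for the difference, and CEACAM6 203757_s_at (adjusted p = 0.0558) and CEACAM1 211889_x_at (0.102) also missed it, as did 211889_x_at with array weights (0.0512). Between the uninduced lines 2 members were called with median centring, the filter or array weights, the second being CEACAM6 211657_at.

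Without each array in turn, calls numbered 5 to 8 with the shRNA, 7 with dnTcf4, 3 to 5 for the difference, 1 to 3 between the uninduced and 5 to 7 between the induced lines. The change of CEACAM7 206199_at with the shRNA ranged from 1.37 to 2.05, passing without dnTcf4 uninduced replicate 3 (adjusted p = 0.034), its change with dnTcf4 from 0.97 to 1.98, and the difference of CEACAM5 201884_at from 0.72 to 1.16. The count of 3 for the difference arose without shRNA induced replicate 2, shRNA uninduced replicate 1 or 3, dnTcf4 induced replicate 2 or 3, or dnTcf4 uninduced replicate 1 or 3. The count of 3 between the uninduced lines arose without shRNA uninduced replicate 2, and a count of 2 without dnTcf4 uninduced replicate 2.

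Same-numbered arrays did not deviate together (correlations -0.034 to 0.059), so the numbers are not taken as pairs. With the replicate block 7 members were called with the shRNA, 7 with dnTcf4 and 4 for the difference, where CEACAM1 211889_x_at missed the threshold (-2.07, adjusted p = 0.0506). Over all probe sets calls without the trend numbered 3464 against 6058 with the shRNA, 3209 against 6223 with dnTcf4, 577 against 2480 for the difference and 4326 against 7181 between the uninduced lines. With 1 probe set per gene 3883 were called with the shRNA, 4093 with dnTcf4 and 4321 between the uninduced and 5785 between the induced lines, where 10135 were called over all probe sets. Where not stated otherwise the cause was not tested. Dim probe sets such as those of CEACAM7 limit what could be detected.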
